A study of Mus musculus with 8 samples.

Results

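Interferon-stimulated genes (ISGs) are the genes that cells switch on when interferon reaches them, and 36 of them were followed in mouse liver. They were taken by gene symbol from a table of 45706 genes: Stat2, Irf9 and Irf7 among the transcription factors, Isg15 and Usp18, the sensors Ddx58, Ifih1, Dhx58 and Zbp1, 4 IFIT genes, 5 OAS genes, Mx1, Mx2, Rsad2, Cmpk2 and Bst2, 5 GTPase genes of the GBP and IRG families, and Apol9a, Apol9b, Ifi35, Ifi44, Parp14, Rtp4, Trim30a and Xaf1. All 36 were found, and all 36 passed the filter on low counts that left 14629 genes to test. Their estimated counts in a single mouse lay between 37 (Oas3) and 8355 (Apol9b).

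RNA came from the liver of 8 female C57BL/6J mice that were 4 months old, fed chow and fasted overnight before harvest, with 1 library per mouse. The 4 S155A mice, called SA/SA in the study, carry the serine-to-alanine change S155A in perilipin 5 (PLIN5), a lipid droplet protein. The change was made with CRISPR-Cas9 in the endogenous gene, so it is present in every cell of the animal and not in hepatocytes alone. The other 4 mice were WT. The study asked which liver genes change when this serine cannot be phosphorylated.

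The labels also give each mouse a number. These numbers are under 200 in 4 mice (replicates 1 and 4 of WT and of S155A) and over 800 in the other 4 (replicates 2 and 3 of both genotypes), so each range holds 2 mice of each genotype. The labels do not say what the numbers stand for, so whatever else the mice of a range share cannot be told apart from the number. The ISGs were compared both by genotype and by number range. Both comparisons use the same 8 mice.

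Interferons bind receptors on the cell surface, and the JAK family kinases on those receptors then phosphorylate STAT proteins. Type I and type III interferons lead to a complex that holds STAT2 and IRF9 and binds the interferon-stimulated response element (ISRE) in the promoters of its target genes. Type II interferon acts mainly through the gamma-activated site (GAS). The proteins made from ISGs sense viral nucleic acid, block viral replication and, in the case of USP18, dampen the signal again. In liver, hepatocytes, Kupffer cells and endothelial cells can all respond, and a low level of ISG RNA is usual without infection.

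The ISRE core was searched in the promoters of these genes as GAAA, any 2 bases and GAAA again, on both strands of the 250 bases before each start. RefSeq promoter sequences (build GRCm38.p6) were matched for 28 of the 36 genes. The core was found in 17 of the 28 (60.714%), while 3.463% of the 27025 genes with a promoter in the same table hold it. GAS, searched as TTCNNNGAA, was found in 5 of the 28 (17.857%) and in 8.13% of all genes. All starts used here are those of RefSeq. By the outermost gene start in GENCODE release M21, the matches of Apol9a and Apol9b lie across or after the start. Those of Gbp2 and Irgm1 lie after it. Matches of the ISRE core may overlap each other or a GAS, and a match is a description of the letters only. The windows below show the genes whose values the text turns on and those with the clearest repeats, read 5′ to 3′ in the direction of the gene, with each match to the core, or run of overlapping matches, in capitals.
Isg15 (chr4:156200871-156200900, reverse strand): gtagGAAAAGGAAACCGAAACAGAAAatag
Apol9a (chr15:77411117-77411146, reverse strand): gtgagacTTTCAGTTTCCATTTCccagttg
Apol9b (chr15:77729028-77729057, forward strand): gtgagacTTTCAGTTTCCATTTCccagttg
Gbp3 (chr3:142559992-142560021, forward strand): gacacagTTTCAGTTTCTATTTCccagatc
Igtp (chr11:58199512-58199541, forward strand): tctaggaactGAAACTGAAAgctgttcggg
Irgm1 (chr11:48871428-48871457, reverse strand): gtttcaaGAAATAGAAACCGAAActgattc
Bst2 (chr8:71537580-71537609, reverse strand): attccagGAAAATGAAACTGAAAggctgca
Ifit3 (chr19:34583397-34583426, forward strand): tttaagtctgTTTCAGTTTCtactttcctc
Ifit3b (chr19:34607793-34607822, forward strand): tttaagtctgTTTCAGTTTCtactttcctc
Rsad2 (chr12:26456553-26456582, reverse strand): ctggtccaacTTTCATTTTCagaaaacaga

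The windows of Apol9a and Apol9b are letter for letter the same, as are those of Ifit3 and Ifit3b. Genes of such a pair are near-identical copies, and salmon divided the reads they share by its model, so the split between the members of a pair is uncertain. In Isg15, 3 overlapping matches formed a single run. All 5 GBP and IRG genes held the core, while neither matched sensor gene (Ddx58 and Ifih1) held it in this window. Promoters of Usp18, Dhx58, Zbp1, Oas2, Mx1, Mx2, Parp14 and Rtp4 were not matched in the table used.

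**Figure D1:**
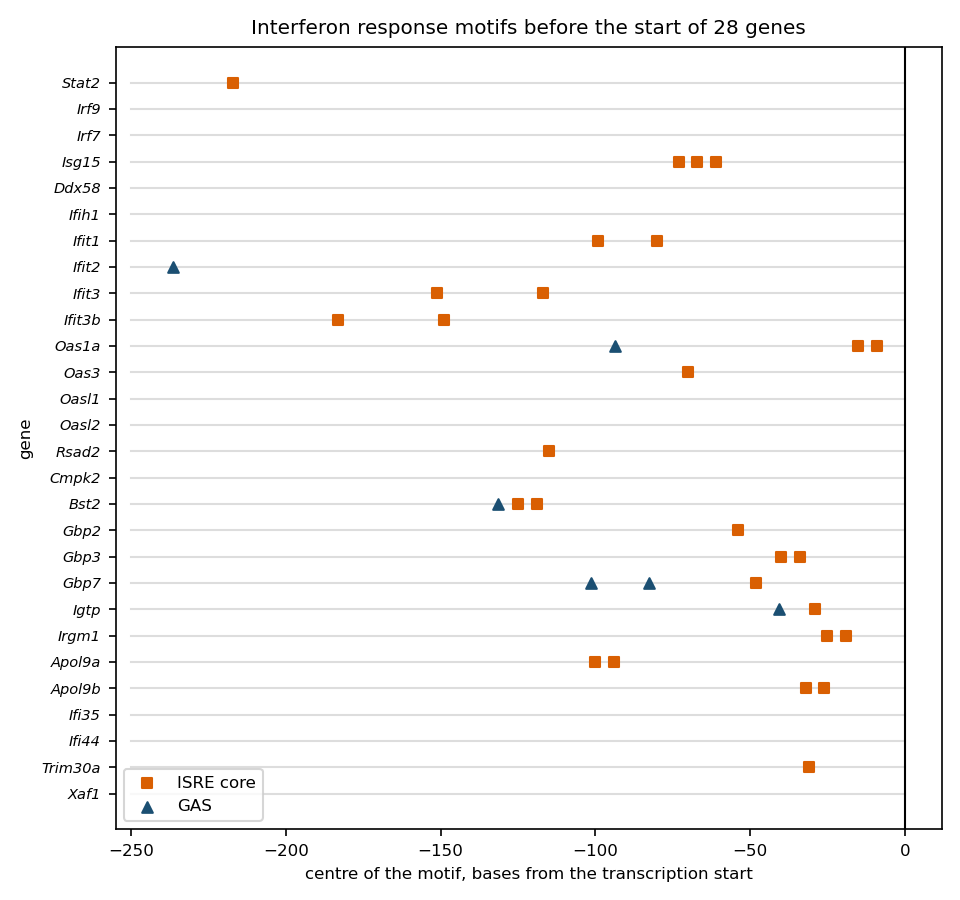
Position of the ISRE core (orange squares) and GAS (blue triangles) in the 250 bases before the transcription start of the 28 matched genes, with the centre of each motif on the horizontal axis in bases from a start that RefSeq gives. Of the 28 genes, 17 hold the ISRE core and 5 hold GAS. In Apol9a, Apol9b, Gbp3, Ifit2 and Trim30a, which have 2 annotated starts, the distance is given from 1 of them.

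The labels call the cell type hepatocytes, but markers of other liver cells were present. Summed CPM, the counts scaled to a common library size after TMM normalization, of 8 hepatocyte markers was between 96700 and 138000 over the mice. The 10 Kupffer cell markers summed to between 294 and 649, and the 7 markers of sinusoidal endothelial cells to between 182 and 248. The values are therefore those of whole liver, in which fewer cells of a type and less RNA per cell cannot be told apart. Library totals were between 39709830 and 54540612 counts. The edited gene, Plin5, had a mean CPM of 206 ± 32.3 (SD, n = 4) in WT and 328 ± 118 (SD, n = 4) in S155A mice. Its log2 difference of 0.67 (SE 0.241) had an unadjusted p of 0.0193 and an adjusted p of 0.993 in edgeR. Counts per gene do not show the edited codon, so they do not check the genotype labels.

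Every ISG was detected in every mouse. Per kilobase of annotated exon, the mean level over the 8 mice was highest for Bst2 (114.5 CPM per kb), which codes for tetherin, a protein that holds budding virus at the cell surface. Next were Apol9b (65.4 CPM per kb) and Igtp (29.96 CPM per kb). The lowest levels per kilobase were those of Oas3 (0.179 CPM per kb) and Ifi44 (0.342 CPM per kb). The spread between the 8 mice differed widely among the genes. Irf9, a subunit of the ISRE-binding complex, varied least, by 1.29 times between its lowest and its highest mouse. Igtp, an interferon-induced GTPase that acts on intracellular pathogens, varied most, by 3.80 times. Over all 36 genes, S155A replicate 2 was the highest mouse for 14 genes and WT replicate 3 for 10 (13% and 10.9% of all genes). WT replicate 1 was the lowest mouse for 20 and S155A replicate 4 for 10 (14.6% and 12% of all genes).

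**Figure D2:**
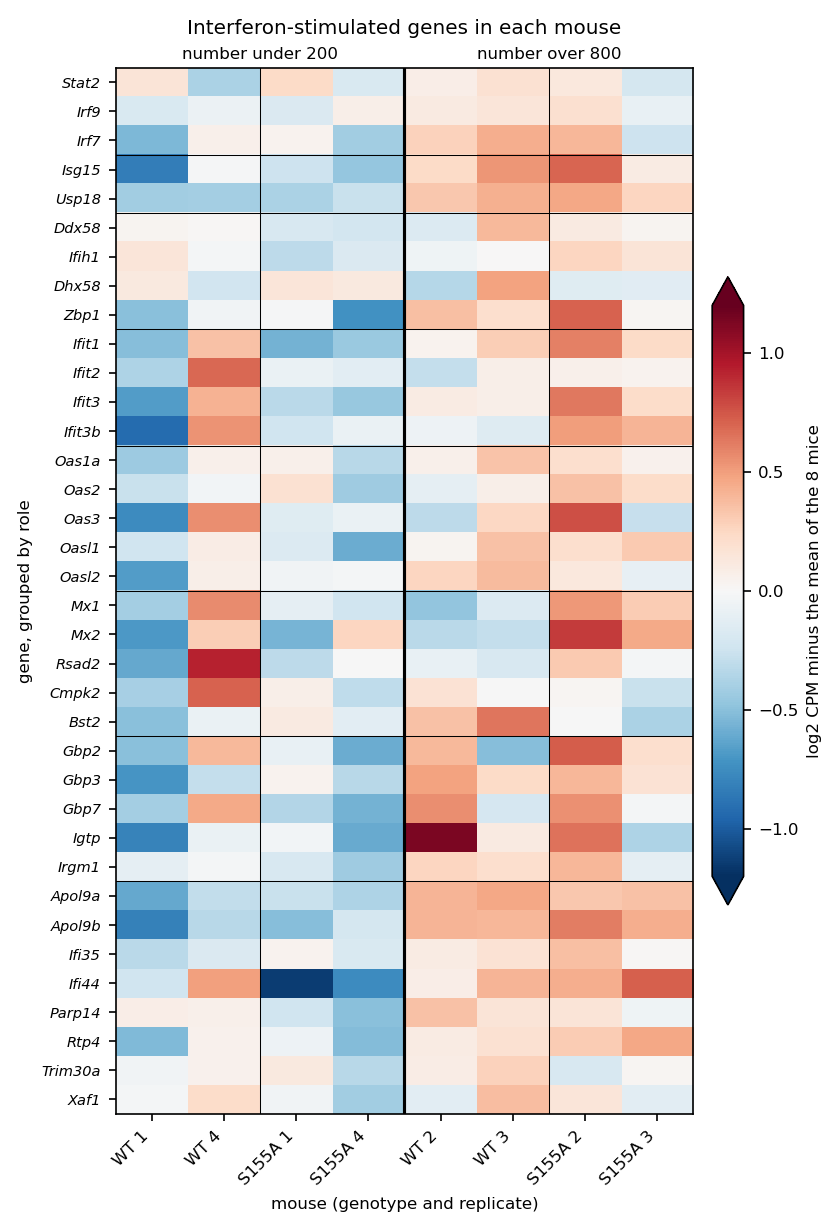
Each row is a gene, grouped by role, and each column a mouse, with the 4 mice numbered under 200 on the left and the 4 numbered over 800 on the right. Colour gives log2 CPM minus the mean of the 8 mice, red above and blue below, on a scale that ends at 1.2 in either direction. The highest value lies in a mouse numbered over 800 for 30 of 36 genes, and the lowest in a mouse numbered under 200 for 34. Of all 14629 tested genes, 7315 were highest over 800 and 7260 were lowest under 200.

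By genotype, the ISGs did not differ beyond the spread between mice. Of the 36 genes, 14 were higher and 22 were lower in S155A than in WT mice (48.8% of all genes were higher), and the median log2 difference was -0.02, against -0.01 over all 14629 genes. No ISG passed an adjusted p of 0.05 in edgeR's quasi-likelihood test, and none reached an unadjusted p under 0.05. Over all genes, 0% passed the adjusted threshold, and 3.4% had an unadjusted p under 0.05. DESeq2 and limma-voom also called none of the 36, where they called 0.041% and 0% of all genes. The WT and S155A mice overlapped for all 36 genes, where 2.3% of all genes did not overlap.

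Parp14, an ADP-ribosyltransferase, had the smallest p of the genotype comparison. Its CPM was 35.04, 42.3, 36.9 and 34.5 in WT replicates 1 to 4 and 28.05, 36.8, 31.9 and 23.4 in S155A replicates 1 to 4. The mouse S155A replicate 2 lay within the range of WT, and the other 3 S155A mice lay under all WT mice. The log2 difference was -0.31 (SE 0.142), with an unadjusted p of 0.0545 and an adjusted p of 0.993 in edgeR.

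Mx2 had the largest difference by genotype. It belongs to the dynamin-like MX GTPases and is annotated as a polymorphic pseudogene in GENCODE release M21. Its CPM was 4.46, 5.72, 5.90 and 8.84 in the WT mice and 4.86, 12.9, 9.90 and 8.62 in the S155A mice, so the groups overlapped. It differed by 0.54 (SE 0.296) on the log2 scale, with an adjusted p of 0.993 in edgeR.

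The genes next in order of p, Xaf1, Cmpk2, Bst2 and Trim30a, were all lower in S155A mice. XAF1 promotes apoptosis, CMPK2 is a mitochondrial nucleotide kinase and TRIM30A is a ubiquitin ligase of the TRIM family. Xaf1 had a mean CPM of 6.84 ± 1.10 (SD, n = 4) in WT and 5.87 ± 0.935 (SD, n = 4) in S155A mice. Cmpk2 had 6.46 ± 2.13 and 5.29 ± 0.712, and Trim30a had 5.01 ± 0.481 and 4.41 ± 0.625. Bst2 had 113 ± 37.7 and 94.2 ± 13.2. None of these differences passed the test, with an unadjusted p between 0.233 (Xaf1) and 0.284 (Trim30a).

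By number range, most ISGs were higher in the mice numbered over 800. These genes were chosen with earlier results of these data known, so their counts beside those of all genes are a description and not a test. The direction was higher for 32 of 36 genes, where 49.2% of all genes were, and the median log2 difference was 0.32, where that of all genes was 0.00. At an unadjusted p under 0.05, 15 ISGs were higher and none was lower; over all genes 6.64% were higher and 6.19% lower by this rule. No ISG passed an adjusted p of 0.05 in edgeR, and neither did any other gene (0%). In DESeq2, which called 2.79% of all genes at that threshold, Usp18, Apol9a, Apol9b, Isg15 and Gbp3 passed. With no filter on low counts edgeR called these 5 and Igtp (2.29% of all genes), and with no genotype term it called Usp18, Apol9a and Apol9b (0.082%). The direction held in both genotypes. The median log2 difference was 0.22 between the WT mice of the ranges and 0.44 between the S155A mice, with 30 and 32 of the genes higher.

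Usp18, Apol9a and Apol9b led the comparison, at places 4, 7 and 9 of all 14629 genes in order of p. All 3 had an adjusted p of 0.0618 in edgeR, the smallest value in the table, and 0.212% of all genes were higher with an adjusted p under 0.1. The exact permutation test gave 0.0286 for each, the smallest p that 4 mice against 4 allow. Any gene whose mice do not overlap has this p.

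Usp18 codes for the protease that removes ISG15 from proteins and also restrains type I interferon signalling at the receptor. Its CPM was 13.3, 13.5, 13.7 and 14.9 in the mice numbered under 200 (WT replicates 1 and 4, then S155A replicates 1 and 4). It was 22.3, 24.0, 24.6 and 21.4 in the mice numbered over 800 (WT replicates 2 and 3, then S155A replicates 2 and 3). The ranges did not overlap. Both S155A mice were above both WT mice under 200, and the genotypes overlapped over 800. Its log2 difference was 0.74 (SE 0.097), a 1.67-fold difference of the means, and was 0.79 in WT and 0.68 in S155A mice. Leaving out each mouse in turn gave 0.71 to 0.78.

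Apol9a and Apol9b code for mouse apolipoproteins of the L family that are induced by interferon. In the same order of mice, Apol9a had a CPM of 42.0, 52.3, 53.4 and 49.8 under 200 and 85.2, 88.4, 80.3 and 82.3 over 800. Apol9b had 64.0, 89.5, 79.0 and 97.2 under 200 and 149, 149, 173 and 153 over 800. Neither gene had a mouse of the lower range near the upper one. On the log2 scale Apol9a differed by 0.77 (SE 0.102) and Apol9b by 0.92 (SE 0.126). Since salmon divided the reads of these copies, the results for Apol9a and Apol9b are not independent of each other. Without WT replicate 3, both and Usp18 passed an adjusted p of 0.05 in edgeR (0.746% of all genes), with a smallest value of 0.0326 among the ISGs.

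**Figure D3:**
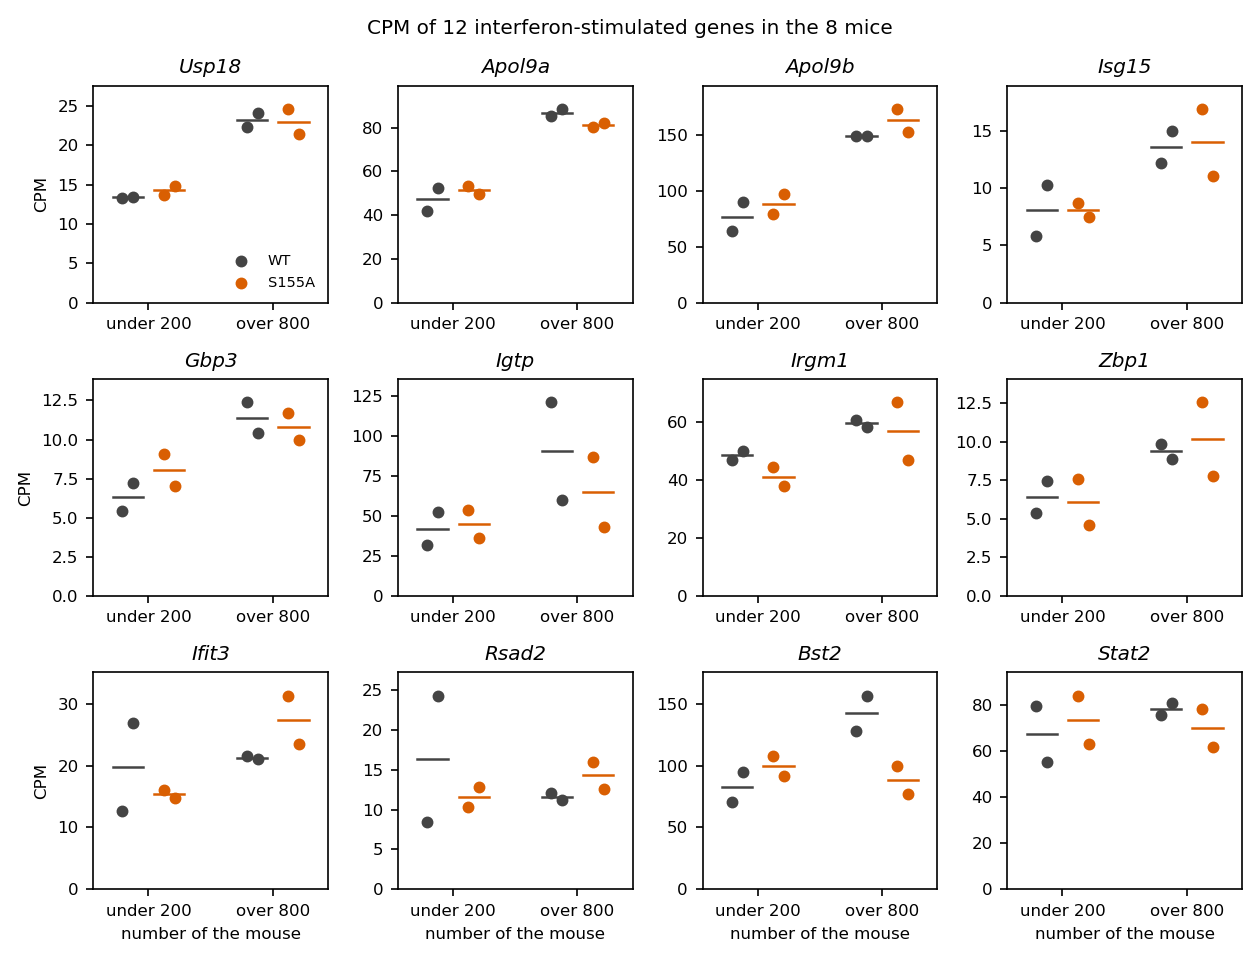
CPM of 12 genes in each mouse, with WT in grey and S155A in orange, by number range, and a line at the mean of each pair of mice. Usp18, Apol9a, Apol9b, Isg15, Gbp3 and Zbp1 do not overlap between the ranges, while WT replicate 4 (24.3 CPM of Rsad2) stands above the other mice numbered under 200 for Ifit3 and Rsad2.

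Isg15, the ubiquitin-like protein that is attached to newly made proteins, was also separate by number range. Its CPM was 5.84, 10.2, 8.73 and 7.51 under 200 and 12.2, 15.0, 16.9 and 11.1 over 800. The highest mouse under 200, WT replicate 4, came close to the lowest over 800, S155A replicate 3. The log2 difference was 0.77 (SE 0.203), with an unadjusted p of 0.00402 and an adjusted p of 0.205 in edgeR.

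Among the GBP and IRG GTPases, which attack the membranes around intracellular pathogens, all 5 were higher over 800 and 3 (Gbp3, Igtp and Irgm1) had an unadjusted p under 0.05. Gbp3 had a CPM of 5.41, 7.24, 9.08 and 7.02 under 200 and 12.4, 10.4, 11.7 and 9.95 over 800, without overlap. Its log2 difference was 0.64 (SE 0.167), with an adjusted p of 0.205 in edgeR. Irgm1, a regulatory member of the IRG family, had 47.1, 50.1, 44.5 and 37.8 under 200 and 60.8, 58.4, 66.8 and 47.0 over 800. S155A replicate 3 fell among the mice of the lower range, and the log2 difference was 0.38 (SE 0.123), with an unadjusted p of 0.0122 and an adjusted p of 0.269. Igtp, which overlaps Irgm2 on the same strand in the annotation, was at 31.8 to 53.9 CPM under 200 and at 42.9 to 121 CPM over 800. The highest mouse of Igtp was WT replicate 2. Gbp2 and Gbp7 overlapped, with log2 differences of 0.41 (SE 0.306) and 0.44 (SE 0.268).

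The nucleic acid sensors did not move as a group. Zbp1, which binds Z-form nucleic acid and can start necroptosis, had a CPM of 5.41, 7.44, 7.60 and 4.63 under 200 and 9.88, 8.86, 12.6 and 7.79 over 800. The lowest mouse over 800 lay just above the highest under 200, and the log2 difference was 0.64 (SE 0.215), with an unadjusted p of 0.0151 and an adjusted p of 0.280 in edgeR. The RIG-I-like receptors Ddx58 (RIG-I), Ifih1 (MDA5) and Dhx58 (LGP2) had log2 differences of 0.20 (SE 0.127), 0.18 (SE 0.130) and -0.05 (SE 0.188). None of these 3 had an unadjusted p under 0.05, and their mice overlapped.

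Rtp4, a chaperone for G protein-coupled receptors and a regulator of sensing, was the last of the 7 genes without overlap between the ranges. Its CPM was 6.56, 9.83, 9.05 and 6.58 under 200 and 10.2, 10.8, 11.7 and 13.1 over 800, with WT replicate 4 next to the upper range. The log2 difference was 0.51 (SE 0.170), with an adjusted p of 0.278 in edgeR. Masp1 lies across Rtp4 on the other strand. The strand setting of the counting is not given in the sources used here, so reads of these partners may not be apart. All 7 genes without overlap (Usp18, Isg15, Zbp1, Gbp3, Apol9a, Apol9b and Rtp4) were higher over 800, where 3.53% of all genes were separate in that direction. Any gene without overlap between 4 mice and 4 has the smallest permutation p, 0.0286, so this p adds nothing to the separation.

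Of the other induced genes, Ifi35, Ifi44 and Parp14 also had an unadjusted p under 0.05, with log2 differences of 0.32 (SE 0.110), 0.80 (SE 0.357) and 0.30 (SE 0.107). Ifi44 is a low gene, at 0.853 to 2.72 CPM under 200 and 2.03 to 3.19 CPM over 800. Trim30a and Xaf1 differed by 0.09 (SE 0.168) and 0.14 (SE 0.174), within the spread of the mice.

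All 5 OAS genes were higher over 800. OAS1A, OAS2 and OAS3 belong to the family that makes 2′-5′ oligoadenylate, the activator of RNase L, and OASL1 is a related protein that limits translation of Irf7. Only Oasl1 of the 5 had an unadjusted p under 0.05, with a log2 difference of 0.44 (SE 0.151). Oas1a, Oas2, Oas3 and Oasl2 lay between 0.21 (SE 0.386, Oas3) and 0.32. Among the transcription factors, Irf7, the master factor of type I interferon induction, had a log2 difference of 0.43 (SE 0.189) and an unadjusted p of 0.0480. Stat2 and Irf9 had 0.07 (SE 0.154) and 0.18 (SE 0.102). Irf7 and Phrf1 overlap on opposite strands, and Irf9 overlaps Rnf31 on the same strand.

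Among the IFIT genes, whose products bind foreign RNA ends, and the group of Mx1, Mx2, Rsad2 and Cmpk2, several were highest in WT replicate 4, a mouse numbered under 200. Rsad2 codes for viperin, which makes a chain-terminating nucleotide. It had 24.3 CPM in WT replicate 4, the highest of the 8 mice, and between 8.39 and 12.8 CPM in the other mice numbered under 200. The mice numbered over 800 lay between 11.2 and 16.01 CPM. Ifit2, Ifit3b, Mx1 and Cmpk2 were highest in WT replicate 4 as well, at 4.22, 6.69, 3.47 and 9.38 CPM. Ifit1, Ifit3 and Mx2 were highest in S155A replicate 2, at 16.8, 31.3 and 12.9 CPM.

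The log2 difference by number range was 0.56 (SE 0.226) for Ifit1, which had an unadjusted p of 0.0343, and 0.47 (SE 0.241) for Ifit3. It was -0.09 (SE 0.307) for Rsad2, -0.09 (SE 0.238) for Cmpk2 and -0.10 (SE 0.270) for Ifit2, and the latter 3 with Dhx58 were the only ISGs below 0. Without WT replicate 4, 21 of the 36 genes were higher at an unadjusted p under 0.05 (6.55% of all genes), and the median log2 difference was 0.47. Without S155A replicate 2 the count was 8 (4.51% of all genes), and without S155A replicate 4 it was 9 (4.89%).

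**Figure D4:**
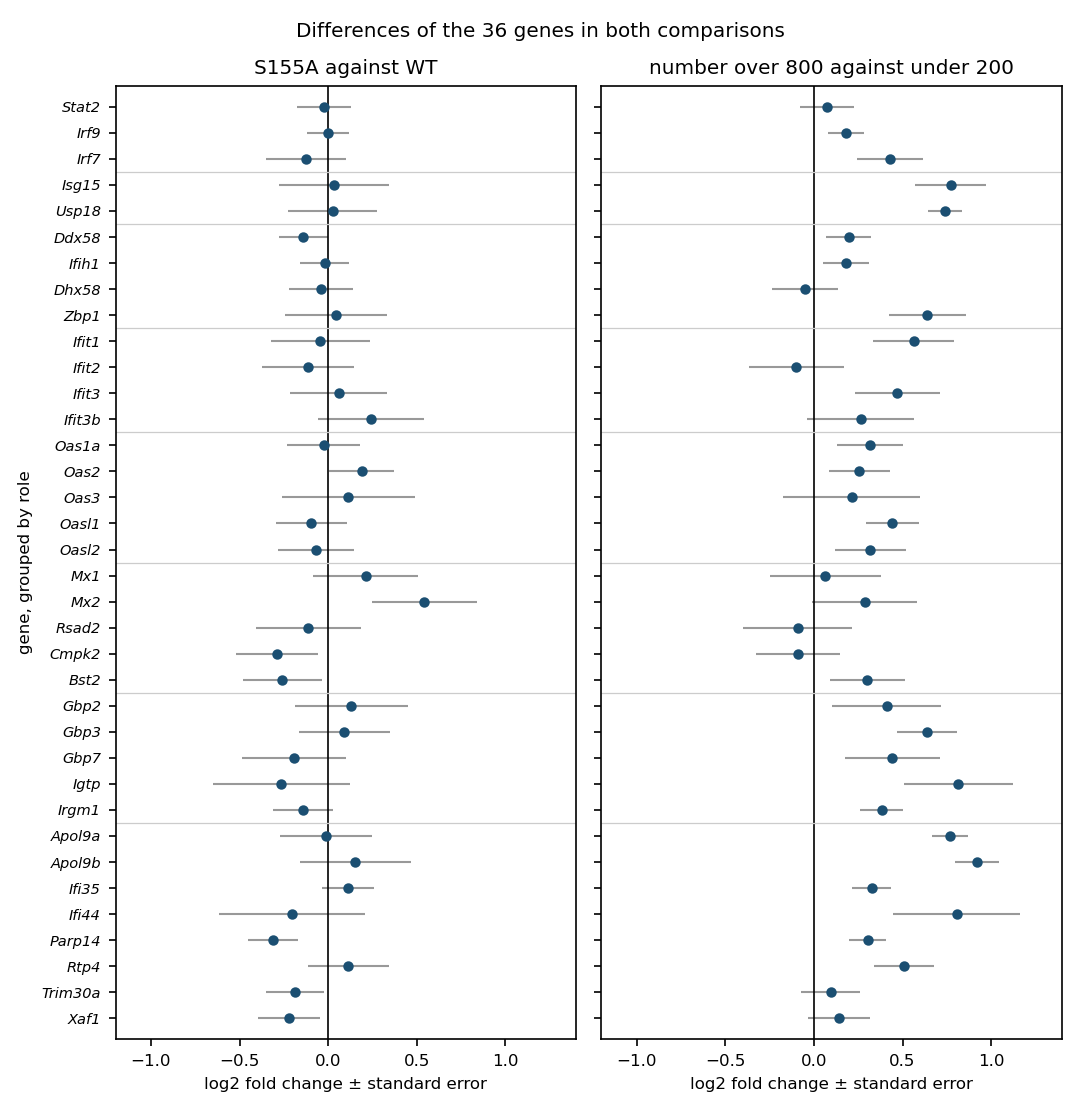
Log2 difference (points) with its standard error (bars) for each of the 36 genes in edgeR, by genotype (left, S155A against WT) and by number range (right, over 800 against under 200). The points of the left panel lie around 0 with a median of -0.02, and 32 of the 36 in the right panel lie above 0.

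Genes with and without the ISRE core shown above overlapped in their differences by number range. The median log2 difference was 0.41 over the 17 genes with the core, 0.20 over the 11 without it and 0.29 over the 8 whose promoters were not matched. The range was -0.09 to 0.92 with the core and -0.10 to 0.80 without it. At an unadjusted p under 0.05 in edgeR, 7 of the 17 with the core were higher, 4 of the 11 without it and 4 of the 8 not matched (6.64% of all genes). Of the 7 genes without overlap between the ranges, 4 held the core, as did 17 of all 28 matched genes, and the other 3 (Usp18, Zbp1 and Rtp4) had no matched promoter. The 4 include the copies Apol9a and Apol9b, whose windows are the same.

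The test of whether the genotype difference itself differed between the ranges found no ISG at an adjusted p under 0.05, and 0% of all genes passed. At an unadjusted p under 0.05, 2 ISGs had a more positive difference over 800 (6.02% of all genes) and 1 had a more negative one (5.07% of all genes). Each genotype has only 2 mice in a range. Bst2 had the smallest p of the 36. Its CPM was 70.7 and 95.04 in WT and 108 and 92.0 in S155A mice under 200, and 128 and 157 in WT and 99.8 and 76.9 in S155A mice over 800. Thus both WT mice over 800 lay above all S155A mice, while under 200 the genotypes overlapped. The difference of S155A against WT was 0.28 on the log2 scale under 200 and -0.69 over 800, and its change of -0.96 (SE 0.278) had an unadjusted p of 0.00789 and an adjusted p of 0.302 in edgeR. With no filter on low counts Bst2 passed the adjusted threshold, where 3.41% of all genes did.

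Ifi44 and Ifih1 went the other way. For Ifi44 the S155A mice had 0.853 and 1.13 CPM under 200, below WT at 1.62 and 2.72, and 2.63 and 3.19 CPM over 800, above WT at 2.03 and 2.57. The change was 1.47 (SE 0.526), with an unadjusted p of 0.0219 and an adjusted p of 0.364. For Ifih1 the change was 0.54 (SE 0.197), with an unadjusted p of 0.0244 and an adjusted p of 0.371. Mx1, Ifit1 and Mx2 followed, with changes of 1.07 (SE 0.530), 0.75 (SE 0.388) and 0.96 (SE 0.512) and no unadjusted p under 0.05. In all 3 of them S155A replicate 2 was the highest mouse numbered over 800.

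The rest of the pathway was described with further gene lists. Of the 10 interferon genes listed, 9 had no count in any mouse and none had more than 3 counts in a mouse, so none was tested. With 3 counts or fewer in libraries of this depth, interferon transcripts were at or under the limit of detection in whole liver. Of 8 receptor and kinase genes tested, none had an unadjusted p under 0.05 in any comparison. Over all genes, 3.4% did by genotype, 12.8% by number range and 11.1% in the test of the genotype difference between ranges. By genotype, none of the 8 was higher in S155A mice, where 48.8% of all genes were. The median log2 difference of the 8 was -0.14. The 9 genes of the list summed to 249 to 267 CPM in WT and 230 to 247 CPM in S155A mice. Jak2, a kinase of the interferon gamma receptor, had the smallest p by genotype, with 10.5 ± 0.790 CPM (SD, n = 4) in WT and 8.77 ± 0.693 CPM (SD, n = 4) in S155A mice and an adjusted p of 0.993 in edgeR. The genotypes did not overlap, with 9.81 to 11.6 CPM in WT and 7.76 to 9.29 CPM in S155A mice, where 2.3% of all genes did not. The 2-sided exact permutation p was 0.0286, the smallest that 4 mice against 4 can give. Any gene without overlap has this p, so it adds nothing to the separation. By number range the smallest p was that of Tyk2, with a log2 difference of 0.18 (SE 0.099).

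Of the 7 STAT and IRF genes not among the 36, 6 were higher over 800, and 2 of them at an unadjusted p under 0.05. Over all genes, 49.2% were higher, and 6.64% at that unadjusted p. None of the 7 passed the adjusted threshold.

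Among 56 other rows of interferon-induced genes, 41 were higher over 800 (49.2% of all genes), and the median log2 difference was 0.19. At an unadjusted p under 0.05, 12 were higher (6.64% of all genes) and 2 were lower (6.19%), and none passed the adjusted threshold. This list was also chosen with earlier results of these data known, so its counts are a description as well. The smallest p was that of Psmb10, a catalytic subunit of the immunoproteasome. Its CPM was 19.3, 22.0, 21.4 and 21.2 under 200 and 38.4, 25.7, 45.3 and 34.4 over 800. Psmb10 differed by 0.77 (SE 0.150) on the log2 scale, with an adjusted p of 0.143 in edgeR. By genotype 17 of the 56 rows were higher (48.8% of all genes), with a median of -0.07 and no unadjusted p under 0.05 (3.4% of all genes). The 11 sensing adaptors and kinases and the 6 negative regulators had none under 0.05 by number range or by genotype (12.8% and 3.4% of all genes). Their medians by number range were 0.01 and 0.10.

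**Figure D5:**
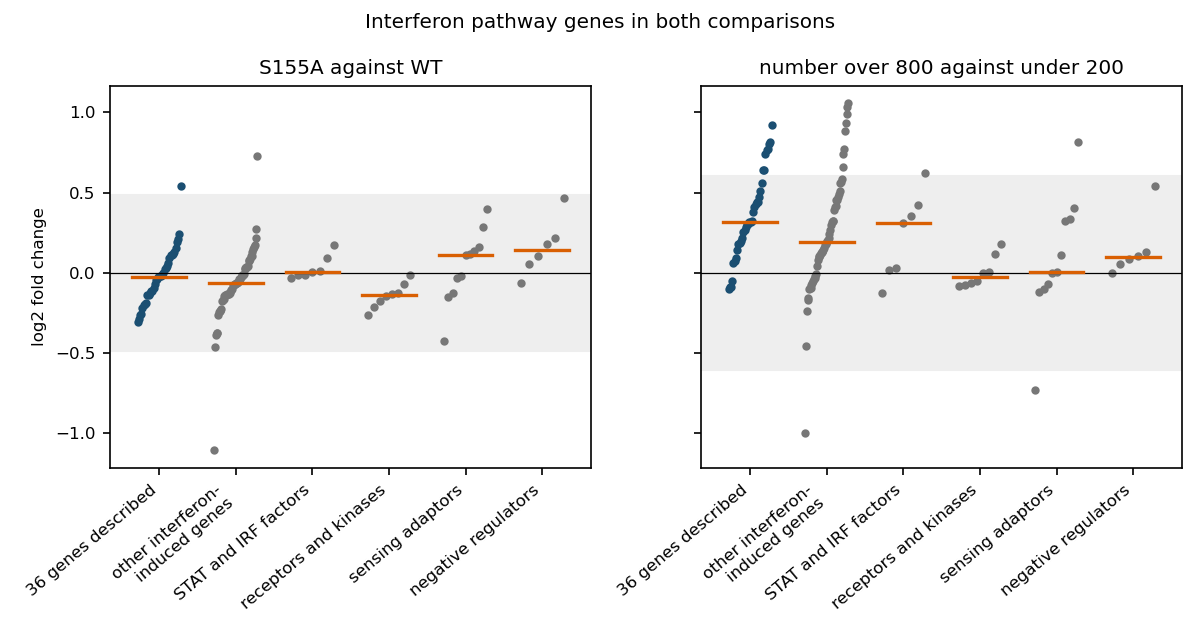
Log2 difference of each gene (points) in the 36 ISGs and in 5 lists of pathway genes, by genotype (left) and by number range (right), with an orange line at the median of each list. The grey band spans the 5% to 95% range of all 14629 tested genes, which is -0.49 to 0.49 on the left and -0.60 to 0.60 on the right.

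Markers of blood-derived cells moved in part with the number ranges. All 7 tested markers of monocytes and neutrophils were higher over 800 (49.2% of all genes), 2 of them at an unadjusted p under 0.05 (6.64% of all genes). The 8 markers of that list summed to 5.02 to 10.9 CPM under 200 and 8.72 to 17.1 CPM over 800. Of the T and NK cell markers, 10 of 11 were higher (49.2% of all genes), with sums of 5.17 to 10.3 CPM and 6.25 to 16.9 CPM. The value of 16.9 CPM was that of S155A replicate 3 alone. The other mice numbered over 800 were at 9.79, 6.25 and 10.3 CPM (WT replicates 2 and 3 and S155A replicate 2). All 8 markers of B and plasma cells had a log2 difference above 0 (49.2% of all genes), with sums of 18.6 to 46.4 CPM under 200. Over 800, WT replicates 2 and 3 and S155A replicate 2 were at 20.3, 21 and 37.1 CPM, within the range under 200. Only S155A replicate 3 lay above that range, at 2070 CPM. That mouse was the highest for only 2 of the 36 ISGs, and without it 14 were higher at an unadjusted p under 0.05 (5.19% of all genes). None of these markers was at 0 in all mice, and their part in the difference of the ISGs was not tested.

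Markers of resident cells were compared in the same way. The 10 Kupffer cell markers had a median log2 difference of 0.00, and their sums were 294 to 577 CPM under 200 and 294 to 649 CPM over 800. Plasmacytoid dendritic cells, a main source of type I interferon, had marker sums of 7.16 to 11.4 CPM and 7.03 to 11.5 CPM. Of their 4 tested markers 1 (Spib) was higher over 800, at an unadjusted p under 0.05 in edgeR, and the median log2 difference was -0.18. The 7 endothelial markers had a median log2 difference of -0.24, and 2 were lower at an unadjusted p under 0.05 (Stab2 and Kdr). The 6 stellate markers had a median of 0.11 with 1 lower (Dcn), the 5 cholangiocyte markers a median of 0.51 with 1 higher (Spp1), and the 8 hepatocyte markers a median of 0.12 with 2 higher (Hnf4a and Ttr). Over all genes, 6.64% were higher and 6.19% lower by this rule. Between individual mice the Kupffer markers did vary: their sum was 649 CPM in S155A replicate 2 and 577 CPM in WT replicate 4, the highest of the 8. These were the highest mice for 19 of the 36 ISGs, with 14 in S155A replicate 2 and 5 in WT replicate 4. Over all genes, these mice were the highest for 13% and 12.7%. Other mice did not follow this order. WT replicate 3 was highest for 10 ISGs at a Kupffer sum of 334 CPM, and WT replicate 2 for 4 at 294 CPM. WT replicate 1, lowest for 20 ISGs, had 351 CPM. In the test of the genotype difference between the ranges, all 10 Kupffer markers were more positive over 800, with a median of 1.27, and 7 had an unadjusted p under 0.05. Over all genes, 49.1% were more positive, and 6.02% at that unadjusted p. The part of the Kupffer markers in the ISG values was not tested.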

How the data were processed

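RNA sequencing of whole liver was analysed for 4 WT and 4 S155A female mice, with 1 library per mouse from a stranded mRNA kit. The deposited values are estimated counts per gene, which the authors made with salmon and scaled for transcript length but not for library size. The submitters' processing notes name bcl2fastq, STAR, SAMtools, MultiQC, DESeq2 and build GRCm38. Not given in the sources used here are the salmon version, annotation release and strand setting. Length scaling can move a count where isoforms differ between mice, and salmon's model shared out the reads of gene copies.

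The estimates were rounded to whole counts, of which filterByExpr kept those of 14629 among 45706 genes. The quasi-likelihood test of edgeR 4.0.16 (R 4.3.3) was run on TMM-normalized libraries, with Benjamini-Hochberg adjustment over all 14629 and a threshold of 0.05. Genotype was fitted alone, the number range with genotype as a covariate, and their interaction with both. Differences within a range or a genotype are of mean log2 CPM (prior count 2) and have no test. Standard errors come from the F statistic. For single genes, log2 CPM was permuted exactly between 4 mice and 4, two-sided. Coordinates and exon lengths are from GENCODE release M21 (GRCm38), which holds 45143 of the identifiers, and promoters from RefSeq (GRCm38.p6).

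The genes and lists were chosen with earlier results of these data known. Full values are given for the 6 genes with the smallest p in each fit and for genes whose 4 and 4 mice do not overlap, with Plin5 as the edited gene and, for some pathway lists, the gene with the smallest p, of which 1 is not reported here. The others of the 36 are given briefly. Alternatives were DESeq2 1.42.0, limma-voom (limma 3.58.1), other scalings and filters, a robust fit, blocks and leaving out each mouse. The fits were tested on simulated data. No library was a copy of another: the chi-square per gene was 40.2 or more between any 2 of them. The replicates are separate mice.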

Additional observations from a re-analysis of the deposited data

Results flagged for a closer look

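Within groups of 4 mice, 6 of 144 sets of CPM values held a mouse whose gap to the nearest of the others was large against the whole range of the group (past Dixon's 95% limit). Chance alone would give about 7 such sets. Among the mice numbered under 200, WT replicate 4 stood apart for Ifit1 (14.1 CPM, the others 7.43 to 8.09), for Gbp7 (7.95 CPM, the others 3.92 to 4.56) and for Dhx58, where it was low (11.7 CPM, the others 15.0 to 15.2). Among the mice numbered over 800, Ifit2 was low in WT replicate 2 (2.13 CPM, the others 2.69 to 2.74), and Apol9b was high in S155A replicate 2 (173 CPM, the others 149 to 153). Among the S155A mice, Oas3 was high in S155A replicate 2 (2.07 CPM, the others 0.977 to 1.13).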

How the results depend on the processing

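By genotype, the number of ISGs at an adjusted p under 0.05 was 0 under every alternative run. Leaving out single mice gave 0 to 1 ISGs higher at an unadjusted p under 0.05 (Mx2, without WT replicate 4 or S155A replicate 1, where 1.43% and 2.69% of all genes were), 0 to 2 lower (Irgm1 and Parp14 without S155A replicate 2 and Bst2 without WT replicate 1, where 1.35% and 2.47% of all genes were) and a median log2 difference of -0.15 (without WT replicate 1) to 0.05 (without S155A replicate 1), and 23 of the 36 genes changed sign in at least 1 alternative. Parp14 was the 1 ISG lower at an unadjusted p under 0.05 with limma-voom, library size alone, no filter, the replicate block and the number range as a factor, where 1.93%, 2.37%, 2.01%, 2.42% and 2.55% of all genes were. By number range, the ISGs called at an adjusted p under 0.05 were 5 with DESeq2, 6 with no filter beyond a count above 0 (Igtp was added) and 3 with no genotype term, against 0 in edgeR. All genes called were then 408, 514 and 12. Leaving out single mice gave 0 to 3 ISGs called (3 without WT replicate 3), 8 to 21 higher at an unadjusted p under 0.05 and a median of 0.26 to 0.47. For the change of the genotype difference between ranges, 1 ISG (Bst2) was called with no filter. The number more positive at an unadjusted p under 0.05 was 6 with no filter (5.98% of all genes) and 1 with library size alone (3.79% of all genes), which moved the median of all genes to -0.16 and that of the ISGs to 0.03. Leaving out single mice gave 0 to 0 called, 0 to 7 more positive (7 without WT replicate 1, where 5.46% of all genes were) and a median of -0.11 (without WT replicate 4) to 0.37. The causes were not tested.

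Mice with the same replicate number were only weakly correlated in their deviations (0.06, 0.17, -0.11 and 0.13 for numbers 1 to 4). WT replicates 1, 2 and 4 correlated best with the S155A mouse of the same number, and WT replicate 3 with S155A replicate 4. The numbers were not taken to pair the mice. With the replicate number as a block, 0 ISGs were called by genotype (median -0.01), and 0 in the change between ranges (median 0.18). That second block was chosen after seeing the data. The comparison by number range has no such fit because each replicate number lies within 1 range. With 4 mice a group, edgeR and the permutation test resolve only differences well above the spread of the mice, and a p that misses the threshold does not show that levels were alike.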
